A study of Danio rerio with 16 samples.

Results

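Star arms are the miRNA strands whose names end in an asterisk, the older way of marking the passenger strand of a miRNA hairpin. The array of zebrafish miRNAs carried 32 of them among 245 zebrafish miRNA names, and they were taken as every non-control name of zebrafish that ends in an asterisk. Of the 32, 31 had on the same array the name without the asterisk, called the partner here, and miR-126b* alone had none. All 16 samples were embryos of the wild-type zebrafish strain TL, 4 samples in each of 4 groups. Exposure began 4 hours post-fertilization (hpf) and, per the labels, went on to 96 hpf, either to ethanol, the vehicle, or to valproic acid (VPA), and embryos were collected at 48 or 96 hpf. Each group is therefore vehicle or VPA at 1 age, the labels used here state no VPA concentration, and they do not say whether the 4 samples of a group came from separate clutches. The p-values below measure the spread between these samples, which may be technical.

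A miRNA is cut from a hairpin by the nucleases Drosha and Dicer as a short duplex of both arms. One strand is loaded into an Argonaute protein and guides silencing, while the other, the passenger or star strand, is usually degraded, although a number of star strands are kept and are active. Because both arms come from the same precursor, a change in making the precursor moves both, and a change in strand choice or in stability can move one arm without the other. VPA is an antiepileptic drug and histone deacetylase inhibitor that is known to harm the developing nervous system and skeleton.

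The array reads each arm through 2 to 4 nested probes that are complementary to its 3′ part. The longest probes of 7 star arms, picked with their changes known, are shown first, with the probe of miR-126b* and its closest probe, that of miR-126, because those nearly share a sequence. Each runs 5′ to 3′; capitals mark the bases present in every probe of that name, and lower case the bases that only longer probes add.
miR-182*: TAGTTGGCAAGTCTAGAacc
miR-129*: ATGCTTTTTGGGGTAAGGg
miR-140*: GTCCGTGGTTCTACc
miR-459*: CCCCAGTAACAGAGAtt
miR-181a*: GGTACAATCAACGGTCGa
miR-210*: CAATGTGCGTTAGTCAg
miR-2188*: GATAGGTCTAACCTCACa
miR-126b*: TGCACTATTACTCACGGt
miR-126: GCATTATTACTCACGGTac
The probes differ in how many bases of a strand they read: the miR-140* probe is 15 bases long and the miR-182* probe 20. The probes of miR-126b* and miR-126 differed at 1 of 17 aligned bases, and the array's annotation lists both arms of miR-126b for the miR-126b* probe. The miR-126b* probe is closest to that of miR-126, a partner, and not to that of miR-126*. It counts as a star arm here by its name only. How much of the miR-126b* signal comes from miR-126 or from the other arm was not tested. Among the star probes the next closest were miR-133a* and miR-133b*, at 2 of 16 aligned bases. Partner probes were not compared with each other in this way. By their sequences, those of miR-17a and miR-20a nearly match, as do those of miR-19a and miR-19b and of miR-133a and miR-133b. How much of one such partner's signal comes from the other was not tested.

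The array's annotation places the probes on danRer6 (Zv8), in intervals equal to the probe's length for 13 and 1 base shorter for 44 of the 57 star and partner probes with a chromosome position. The miR-182* probe lies at chr4:14886123-14886141, miR-129* at chr7:50935752-50935769 and miR-140* at chr25:34937206-34937219. The miR-459* probe lies at chr1:1651518-1651533, miR-181a* at chr22:24052755-24052771 and miR-210* at chr25:26951401-26951416. For 28 of the 31 pairs the star and partner probes lay within 200 bases of each other, with a gap of 17 to 27 bases between them, the loop side of one hairpin. In the annotation's coordinates a longer probe always reached further to the low end (363 of 363 nested intervals), so the low end is the miRNA's 5′ side there. On that reading 15 star probes lay on the 3′ arm of the hairpin and 13 on the 5′ arm. Of the 15 on the 3′ arm 12 were detected in at least 1 group, and of the 13 on the 5′ arm 3 were, namely miR-126*, miR-203b* and miR-210*. Probes of the 18 star arms detected in at least 1 group were 15 to 21 bases long with a median GC content of 47.1%, and those of the other 14 were 13 to 23 bases long with the same median GC content. The RefSeq annotation of the assembly GRCz12tu held a miRNA gene for all 32 names and placed at least 1 gene copy within the span of a protein-coding gene for 17. Examples are miR-140 within wwp2, miR-126b within egfl7, a copy of miR-133a within mib1, and miR-2188 within ank1a.

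Signal is given as log2 of the spot intensity divided by the 75th percentile of the array, so that 0 is the level of that percentile, and averaged over the spots of the brightest probe of a name. Values were floored at −3.95 on this scale, the median over arrays of the lowest signal well above background. The 75th percentile ranged from 507 to 6179 intensity units over the 16 arrays, and the number of arrays, not a read depth, limits the precision. The tissue miRNAs of neurons, muscle, blood, skin, endothelium and cartilage were well above background on 16 of 16 arrays, and miR-122 of liver on 14. All 48 hpf arrays were on 1 slide and all 96 hpf arrays on another, so age and slide cannot be told apart, while each slide held vehicle arrays in one column and VPA arrays in the other, so treatment and place on the slide cannot be told apart. Embryos were used whole: fewer cells that make a miRNA and less of it per cell cannot be told apart.

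Between 13 and 16 of the 32 star arms were measured in a group. Detection in a group took 3 arrays or more, of 4, on which most spots of the probe stood well above background. On that count 15 of 32 were detected in vehicle embryos at 48 hpf, 13 in VPA embryos at 48 hpf, 15 in vehicle embryos at 96 hpf and 16 in VPA embryos at 96 hpf. Names without an asterisk were detected more often, with 136, 123, 157 and 155 of 213 in the same order (63.8%, 57.7%, 73.7% and 72.8%). The 31 partners were also detected more often than the star arms, with 21, 21, 23 and 23. At 96 hpf their share was close to that of all names without an asterisk. The number of star arms well above background differed between arrays of unlike brightness. The 2 dimmest arrays, VPA at 48 hpf replicates 2 and 3 with 75th percentiles of 522 and 507, each had 12 star arms well above background. The 2 brightest, VPA at 96 hpf replicates 3 and 4 with 3415 and 6179, had 20 and 19. Between these the order did not follow brightness: vehicle at 48 hpf replicates 1 and 2, at 1220 and 1179, had 17 each, and the vehicle arrays at 96 hpf, at 1956 to 2406, had 13 to 16. The part of brightness in the group counts was not tested.

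**Figure D1:**
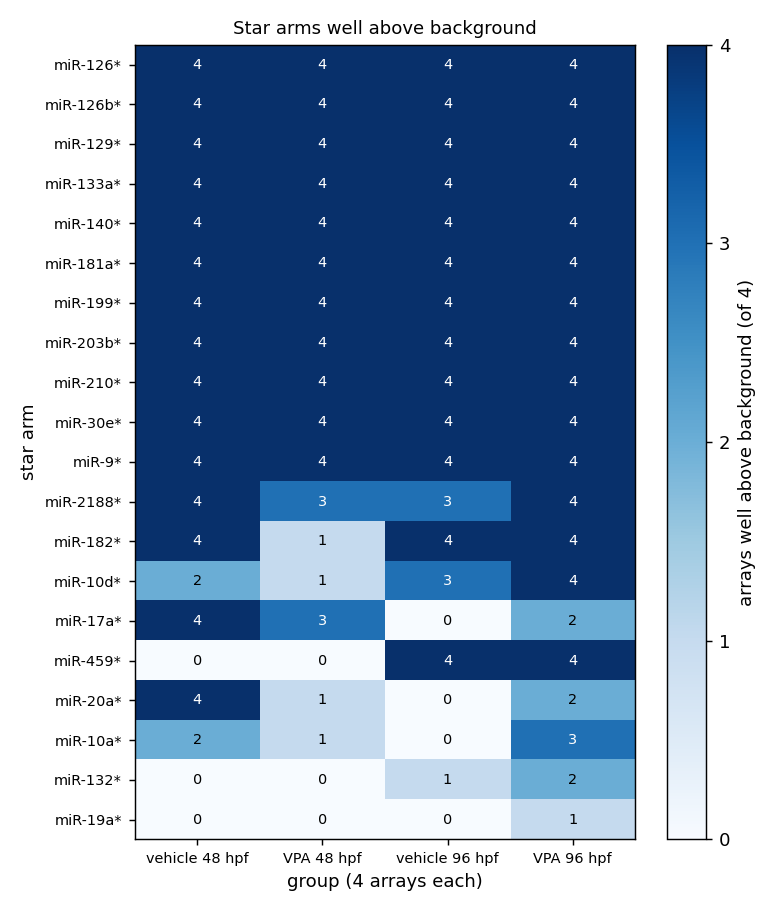
Number of the 4 arrays of each group (columns) on which each star arm (rows) was well above background; the 12 star arms at 0 on all 16 arrays are left out. The upper 11 rows read 4 in every group, and miR-459* reads 0 at 48 hpf and 4 at 96 hpf with either exposure.

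Detected in all 4 groups were 12 star arms, and 11 of those were well above background on all 16 arrays. They are miR-126* (endothelium), miR-126b*, miR-129* (brain), miR-133a* (muscle), miR-140* (cartilage), miR-181a*, miR-199* (mesenchyme), miR-203b* (epidermis), miR-210* (induced by low oxygen), miR-30e* and miR-9* (neural progenitors). The twelfth, miR-2188*, was well above background on 4, 3, 3 and 4 arrays, in the order vehicle and VPA at 48 hpf, then vehicle and VPA at 96 hpf. A further 6 were detected in some groups: in the same order, miR-10a* on 2, 1, 0 and 3 arrays, miR-10d* on 2, 1, 3 and 4, miR-17a* on 4, 3, 0 and 2, miR-182* on 4, 1, 4 and 4, miR-20a* on 4, 1, 0 and 2, and miR-459* on 0, 0, 4 and 4. These 18 were tested. Not tested were miR-132*, on 0, 0, 1 and 2 arrays, and miR-19a*, on 1 array of VPA at 96 hpf. On no array were miR-133b*, miR-1388*, miR-15a*, miR-1788*, miR-18b*, miR-19b*, miR-202*, miR-2185*, miR-2187*, miR-27c*, miR-723* and miR-727*.

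A bright partner did not go with a measured star arm in every pair. In 9 pairs the partner was tested and the star arm was not. Among these, miR-19b read 3.40 to 4.70 and miR-133b 3.20 to 4.38 over the 16 arrays, while both star arms were below background on all 16. Both partners were saturated on VPA at 96 hpf replicate 4, where each read 3.40. The reverse held in 2 pairs. The star arm miR-129* was on 16 of 16 arrays, with levels from −1.25 to 1.21, and miR-129 on 4, with levels from −3.95 to −3.79. The star arm miR-459* was on 8 arrays and miR-459 on none. In 5 pairs neither was tested.

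The star arms of the cluster of miR-17a and miR-20a, which promotes proliferation, share a short stretch of the genome. The probes of miR-17a*, miR-19a*, miR-20a* and miR-19b* lie within 631 bases, from chr8:45337834 to chr8:45338464. From this 1 stretch miR-17a* and miR-20a* were tested, and miR-19a* and miR-19b* were not, although all 4 partners were well above background on 16 of 16 arrays. Partner probes of miR-17a and miR-20a nearly match each other, as do those of miR-19a and miR-19b.

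VPA against vehicle at 48 hpf asks which star arms an exposure from 4 hpf had changed by that age. Of 18 tested star arms 7 changed, 3 higher and 4 lower, and the other 14 star arms could not be tested. Those lower in VPA embryos were miR-182*, miR-129*, miR-140* and miR-10d*, and those higher were miR-133a*, miR-10a* and miR-17a*. Over all 178 tested miRNAs the share called was 29.2% (16.3% higher and 12.9% lower), so 7 of 18 is near the background, and the median change was 0.00 for the star arms as for all miRNAs. Calls are from limma with Benjamini-Hochberg adjustment over the 178 miRNAs, at a threshold of 0.05. The split moved with the scaling: with the 75th percentile taken over probes detected on all arrays 1 star arm was higher and 5 lower, and with quantile normalization 4 were higher and 2 lower. Vehicle and VPA arrays did not overlap for 7 of the 18, against 41% of the 178 miRNAs. The count of calls was 3 without VPA at 48 hpf replicate 3, and 0 with the normexp background correction at either age. Over all 178 miRNAs the calls at 48 hpf were 52 in the main fit, 43 without that array and 5 with normexp.

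The largest change was in miR-182*, from the miR-182 hairpin whose main arm is a miRNA of hair cells and photoreceptors. Its level was −2.21, −2.52, −2.26 and −2.23 on the 4 vehicle arrays at 48 hpf and −3.18, −2.99, −3.24 and −3.34 on the 4 VPA arrays. All VPA arrays lay below all vehicle arrays, and 1 of the 4 VPA arrays was well above background. The change was −0.88 ± 0.09 (SE, n = 4 and 4; limma adjusted p = 6.36e-06), 1.84-fold lower; with normexp it was 0.12. Its partner miR-182 moved the same way, by −0.70 ± 0.07 (limma adjusted p = 6.4e-06).

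A second neural name, miR-129*, fell at both ages. On the vehicle arrays at 48 hpf it read −0.45, −0.55, −0.78 and −0.71, and on the VPA arrays −1.25, −1.18, −1.25 and −1.24. These groups did not overlap. The change was −0.61 ± 0.16 (limma adjusted p = 0.0125), and the shorter miR-129* probe gave −0.67.

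For miR-140*, from a hairpin of developing cartilage, the vehicle arrays read 0.63, 0.56, 0.46 and 0.57 and the VPA arrays 0.23, 0.22, 0.09 and 0.11. The groups did not overlap, and the change was −0.39 ± 0.12 (limma adjusted p = 0.0275), beside −0.24 ± 0.06 for the partner miR-140 (limma adjusted p = 0.0043). The call was lost without VPA replicate 3 or 4 or vehicle replicate 1, 2 or 4, with changes of −0.42 to −0.36 over the arrays left out, and also with quantile normalization or total gene signal scaling. The muscle star arm miR-133a* read −0.33, −0.44, −0.32 and −0.44 on the vehicle arrays and −0.01, −0.07, −0.01 and −0.23 on the VPA arrays. It was higher with VPA on every array, by 0.30 ± 0.07 (limma adjusted p = 0.00543), while the partner miR-133a changed by 0.13 ± 0.13 and was not called.

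The other 3 calls at 48 hpf were of dim star arms. The Hox-cluster star arm miR-10d* was well above background on 2 vehicle arrays and 1 VPA array. It read −3.38, −3.43, −3.50 and −3.50 on the vehicle arrays and −3.57, −3.82, −3.70 and −3.53 on the VPA arrays, which did not overlap, a change of −0.20 ± 0.06 (limma adjusted p = 0.0275). The call was lost without VPA replicate 2 or 3 or vehicle replicate 1 or 2.
The other Hox-cluster star arm, miR-10a*, was also on 2 and 1 arrays, with −3.34, −3.48, −3.66 and −3.47 for vehicle and −3.37, −3.29, −3.11 and −2.97 for VPA. These overlapped by 1 VPA array; the change was 0.30 ± 0.09 (limma adjusted p = 0.0248), near the 0.27 ± 0.06 of miR-10a, and was lost without VPA replicate 3 or 4 or vehicle replicate 3.
The proliferation-cluster star arm miR-17a* read −2.81, −2.96, −3.14 and −2.98 for vehicle and −2.74, −2.80, −2.70 and −2.82 for VPA, with 1 VPA array below the brightest vehicle array. Its change was 0.20 ± 0.06 (limma adjusted p = 0.0248), and it was lost without VPA replicate 1 or 3 or vehicle replicate 3. Scaling by total gene signal also took away all 3 of these calls. With the percentile taken over the detected probes alone, or without the floor, miR-10a* and miR-17a* were not called. A fit of the compared arrays alone lost miR-10a*, and quantile normalization or the mean of all probes lost miR-10d*.
The remaining 11 tested star arms had changes of −0.23 (miR-9*) to 0.20 (miR-126*) and none was called; miR-459* was below background in both groups.

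**Figure D2:**
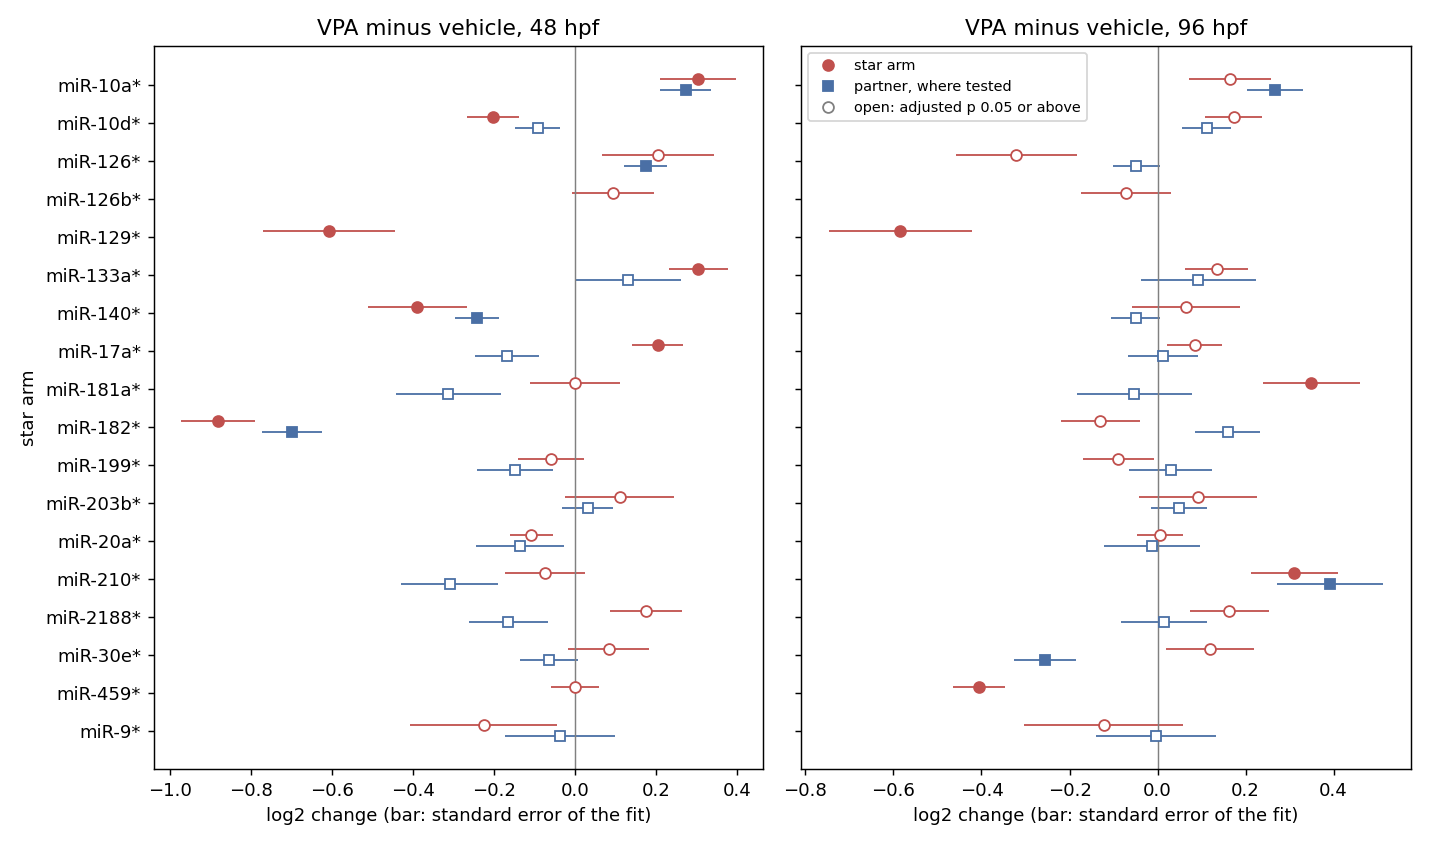
Change of each tested star arm (circles) and of its partner where tested (squares), VPA minus vehicle in log2 units, at 48 hpf (left) and 96 hpf (right); bars are the standard error of the limma fit and filled symbols passed the threshold. At 48 hpf miR-182* and miR-182 lie furthest to the left, at −0.88 and −0.70, and at 96 hpf miR-129* lies there at −0.58.

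At 96 hpf, after 2 further days of exposure, the same comparison called 4 of 18 star arms, 2 higher and 2 lower. The background was 32.6% of the 178 miRNAs (14% higher and 18.5% lower), and the median change was 0.07 for the star arms against −0.03 for all. The star arms miR-129* and miR-459* were lower and miR-181a* and miR-210* higher. With quantile normalization 4 were higher and 2 lower, and without vehicle at 96 hpf replicate 3 there were 2 calls. The counts over all miRNAs in these settings are not given here. The groups did not overlap for 5 of the 18, against 31.5% of all.

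The level of miR-129* at 96 hpf was 0.62, 1.21, 1.06 and 1.18 on the vehicle arrays and 0.28, 0.39, 0.07 and 0.99 on the VPA arrays. The groups overlapped through VPA replicate 4 and vehicle replicate 1. The change was −0.58 ± 0.16 (limma adjusted p = 0.0127), close in size to the −0.61 at 48 hpf, and the difference of the 2 changes was 0.02 ± 0.23 (limma adjusted p = 0.96). The calls of miR-129* and miR-181a* at 96 hpf were lost when only the 8 compared arrays were fitted.

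For miR-459* the vehicle arrays at 96 hpf read −3.20, −3.37, −3.45 and −3.35 and the VPA arrays −3.79, −3.71, −3.88 and −3.63. The groups did not overlap, and all 8 arrays were well above background. The change was −0.41 ± 0.06 (limma adjusted p = 8.5e-05), and the call was lost without the floor. Over the alternatives the limma adjusted p ranged from 1.16e-05 to 0.655. The shorter miR-459* probes were well above background on 0 and 2 arrays and gave 0 and −0.05, so the change rests on the longest probe.

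The star arm miR-181a*, of a family prominent in retina and brain, read −1.24, −1.12, −1.35 and −1.22 with vehicle and −1.04, −0.96, −1.05 and −0.49 with VPA. Every VPA array was above every vehicle array, and VPA replicate 4 stood furthest up. The change was 0.35 ± 0.11 (limma adjusted p = 0.025); it was 0.22 without that array and was not called without vehicle replicate 3. The partner miR-181a changed by −0.05 ± 0.13 and was not called.

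Low-oxygen miR-210* read −1.64, −1.72, −1.68 and −1.70 with vehicle and −1.53, −1.45, −1.41 and −1.10 with VPA. The groups did not overlap. The change was 0.31 ± 0.10 (limma adjusted p = 0.0257), beside 0.39 ± 0.12 for miR-210 (limma adjusted p = 0.022). The miR-210* call was lost without VPA replicate 4, without vehicle replicate 2, 3 or 4, and with the mean of all probes of the name (0.16). The remaining 14 tested star arms had changes of −0.32 (miR-126*, −0.14 without VPA replicate 4) to 0.17 (miR-10d*), and miR-10d* missed the threshold with a limma adjusted p of 0.0506.

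**Figure D3:**
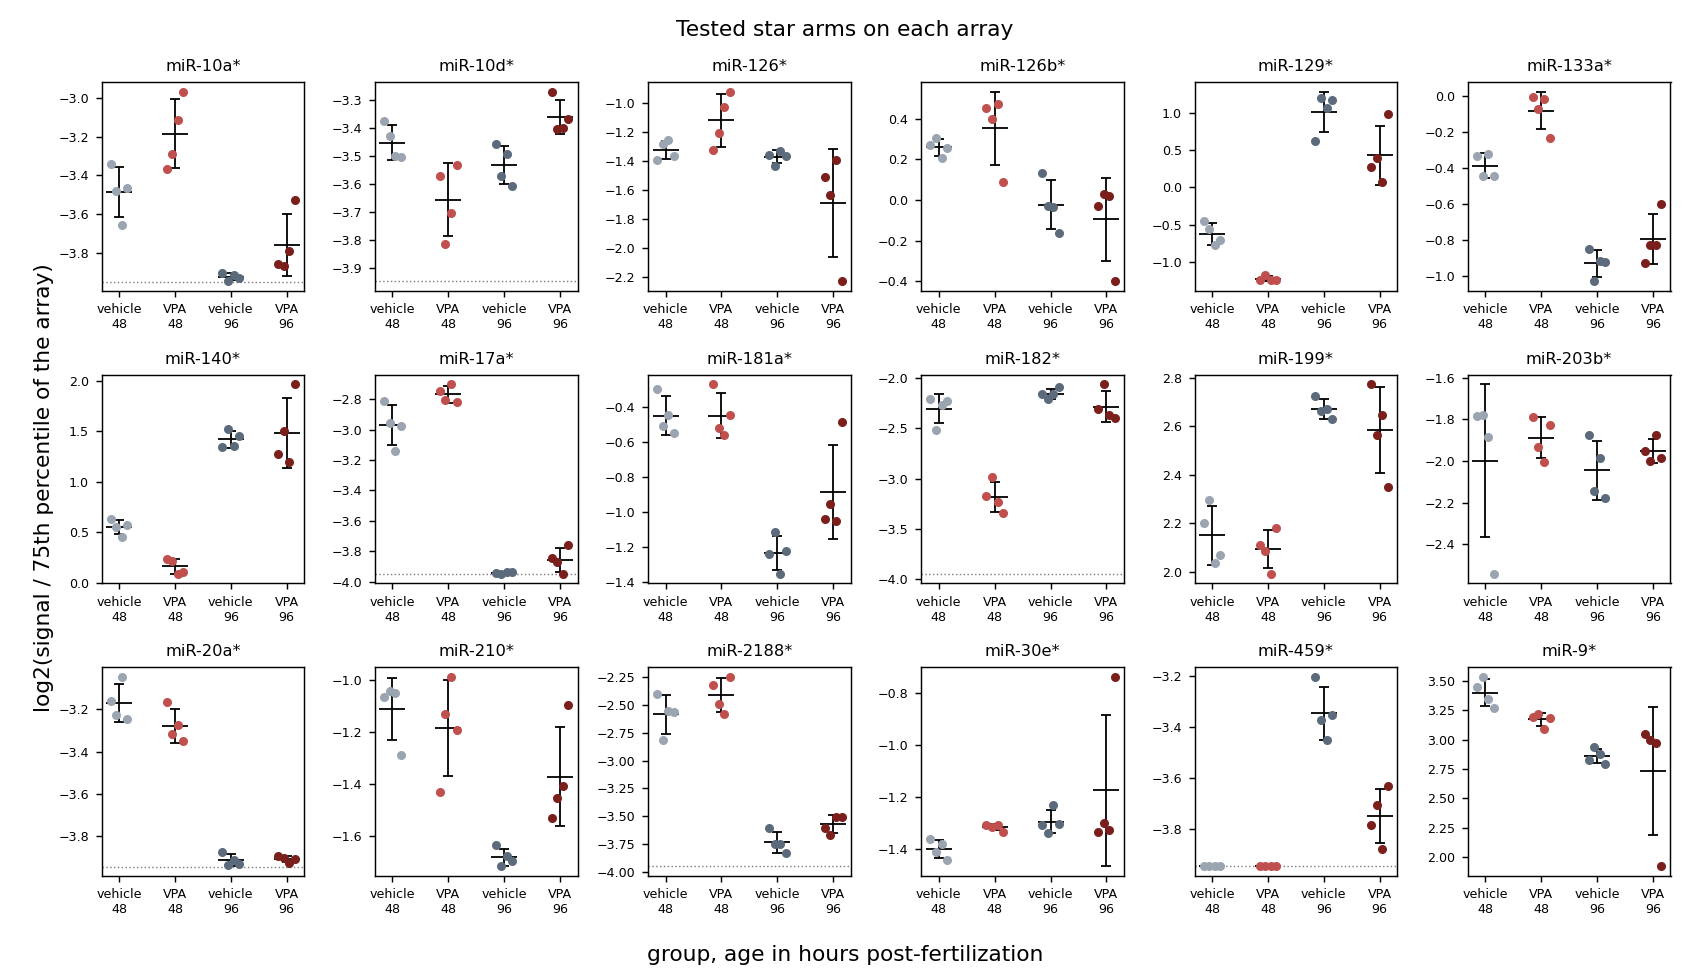
Level of each of the 18 tested star arms on each array, as log2 of signal over the array's 75th percentile, by group; dots are arrays, bars the group mean and SD, the dotted line the floor of −3.95, and each panel has its own vertical scale. The 4 VPA arrays at 48 hpf lie below the other 12 for miR-182*, and miR-17a* and miR-20a* lie near the floor at 96 hpf.

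Whether the VPA effect differed between ages was tested as the difference of the 2 changes. It was called for 3 of 18 star arms, against 12.9% of the 178 miRNAs. Of the 3, 2 were higher and 1 lower, against 3.93% and 8.99%. The median was 0.01 for the star arms and −0.04 for all. The count was 5 without VPA at 96 hpf replicate 3 and 6 without VPA at 96 hpf replicate 4. The count over all miRNAs without these arrays is not given here.
For miR-182* the fall of −0.88 at 48 hpf stood beside −0.13 ± 0.09 at 96 hpf, where the vehicle arrays read −2.16, −2.21, −2.16 and −2.09 and the VPA arrays −2.31, −2.06, −2.37 and −2.39. The difference was 0.75 ± 0.13 (limma adjusted p = 0.000896). The partner miR-182 gave 0.86 ± 0.10 (limma adjusted p = 5.8e-05).
For miR-10d* the change was −0.20 at 48 hpf and 0.17 at 96 hpf, a difference of 0.38 ± 0.09 (limma adjusted p = 0.00959), on levels at 96 hpf of −3.46, −3.57, −3.49 and −3.61 with vehicle and −3.27, −3.40, −3.40 and −3.37 with VPA. At 48 hpf it was well above background on 2 vehicle arrays and 1 VPA array, so it was detected in neither group. The 96 hpf change was not called, and with normexp the difference was −0.98.
For miR-459* the difference was −0.41 ± 0.08 (limma adjusted p = 0.00364), but at 48 hpf all 8 arrays were at the floor, so that a change there could not have been seen. With total gene signal scaling the calls of miR-10d* and miR-459* were lost, and with normexp those of all 3.

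Development from 48 to 96 hpf moved most star arms. In vehicle embryos 13 of 18 changed, 4 higher and 9 lower at 96 hpf, and in VPA embryos 15 changed, 6 higher and 9 lower. The background was also high, at 80.3% of the 178 miRNAs in vehicle embryos (46.1% higher, 34.3% lower) and 77.5% in VPA embryos (41.6% higher, 36% lower). The ages did not overlap for 14 of 18 star arms in each exposure, against 82.6% and 70.8% of all. The median change of the star arms was −0.18 in vehicle and −0.31 in VPA embryos, against 0.12 and 0.02 for all miRNAs. The median of all miRNAs moved with the scaling, to 0.27 in vehicle embryos with the scanner software's total gene signal and to −0.27 in VPA embryos with the normexp background correction. The 2 age comparisons share no arrays, but each is also a comparison between slides.

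The largest rise with age in vehicle embryos was of miR-129*, by 1.64 ± 0.16, a 3.12-fold increase (limma adjusted p = 1.91e-07), from the 48 hpf levels to the 96 hpf levels given above. In VPA embryos it rose by 1.67 ± 0.16 (limma adjusted p = 1.84e-07). The cartilage star arm miR-140* read 1.34, 1.52, 1.35 and 1.46 on the vehicle arrays at 96 hpf and 1.27, 1.5, 1.20 and 1.97 on the VPA arrays. It rose by 0.87 ± 0.12 in vehicle and by 1.32 ± 0.12 in VPA embryos, and miR-140 by 0.95 and 1.14.
Mesenchymal miR-199* read 2.20, 2.30, 2.04 and 2.07 at 48 hpf and 2.73, 2.66, 2.67 and 2.63 at 96 hpf on vehicle arrays, and 2.11, 2.09, 1.99 and 2.18 and then 2.77, 2.56, 2.65 and 2.35 on VPA arrays. It rose by 0.52 ± 0.08 and 0.49 ± 0.08. The shorter miR-199* probes, each well above background on 16 arrays, rose by 0.92 and 0.75 in vehicle and by 0.88 and 0.72 in VPA embryos. The size of this rise thus depends on the probe. In neither exposure did the ages overlap for these 3 star arms.
The star arm miR-459* went from the floor on all 8 arrays at 48 hpf to well above background on all 8 at 96 hpf. In vehicle embryos it was at least 1.19-fold higher (limma adjusted p = 1.57e-07). In VPA embryos the call was higher (limma adjusted p = 0.00602) and the signal gave no bound above 1. The shorter miR-459* probes gave 0 and 0.05 with age in vehicle embryos.

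Among those that fell, miR-2188* read −2.41, −2.82, −2.55 and −2.57 at 48 hpf and −3.61, −3.75, −3.75 and −3.83 at 96 hpf on vehicle arrays. On VPA arrays it read −2.32, −2.49, −2.58 and −2.25 and then −3.61, −3.67, −3.50 and −3.51. The ages did not overlap, with changes of −1.15 ± 0.09 and −1.16 ± 0.09 (limma adjusted p = 1.04e-08 and 1.14e-08), while the partner miR-2188 changed by −0.10 and 0.08 and was not called.
The proliferation-cluster star arms fell to background in vehicle embryos. On vehicle arrays at 96 hpf miR-17a* read −3.94, −3.95, −3.94 and −3.94 and miR-20a* read −3.88, −3.94, −3.92 and −3.94, with 0 arrays well above background for either. From the 48 hpf levels, where miR-20a* read −3.16, −3.23, −3.05 and −3.25, they were at least 1.71-fold and at least 1.49-fold lower (limma adjusted p = 1.01e-09 and 3.39e-09).
In VPA embryos miR-17a* ended at −3.85, −3.87, −3.95 and −3.76 and fell by 1.09, and miR-20a* went from −3.17, −3.32, −3.27 and −3.35 to −3.90, −3.91, −3.93 and −3.91 and fell by 0.63. There miR-17a* was well above background on 3 arrays at 48 hpf and 2 at 96 hpf, and miR-20a* on 1 and 2. The star arm miR-20a* was thus detected in neither VPA group, and its fall there is of signal near background. With normexp the vehicle calls of miR-17a*, miR-20a*, miR-2188*, miR-10a* and miR-459* were lost. Partners miR-17a and miR-20a fell too, by 0.82 and 0.90 in vehicle embryos.

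The star arm miR-181a* fell from −0.30, −0.51, −0.45 and −0.55 at 48 hpf to the 96 hpf levels given above in vehicle embryos, by 0.78 ± 0.11 (limma adjusted p = 9.82e-06). In VPA embryos, at −0.27, −0.52, −0.56 and −0.45 at 48 hpf, it fell by 0.43 ± 0.11, and the ages overlapped there through VPA at 96 hpf replicate 4; with total gene signal scaling this fall was 0.18 and not called. Muscle miR-133a* went from the 48 hpf levels above to −0.85, −1.03, −0.91 and −0.92 with vehicle and −0.93, −0.83, −0.82 and −0.60 with VPA, falls of 0.54 ± 0.07 and 0.71 ± 0.07 without overlap. The partners miR-181a and miR-133a were called in neither exposure.
Neural miR-9* read 3.44, 3.53, 3.35 and 3.27 at 48 hpf and 2.83, 2.93, 2.88 and 2.79 at 96 hpf with vehicle, and 3.20, 3.22, 3.09 and 3.18 and then 3.05, 3.0, 2.97 and 1.92 with VPA. It fell by 0.54 ± 0.18 (limma adjusted p = 0.013) and by 0.44 ± 0.18 (limma adjusted p = 0.0379); the VPA call was lost without VPA at 48 hpf replicate 1, 2 or 4, and VPA at 96 hpf replicate 4 lies 1 log2 unit below the others of its group. Of 12 processing alternatives, 4 lost the vehicle call of miR-9* and 8 lost its VPA call. Quantile normalization lost both, with changes of −0.30 and −0.16. Without VPA at 96 hpf replicate 4 the VPA change was −0.17. Its partner miR-9 fell by 0.88 in vehicle embryos; in VPA embryos its probe was saturated on 3 of 8 arrays, replicate 4 at 48 hpf and replicates 3 and 4 at 96 hpf, so its measured change of −0.85 there is uncertain.
The Hox-cluster star arm miR-10a* read −3.90, −3.95, −3.91 and −3.93 on vehicle arrays and −3.86, −3.87, −3.79 and −3.53 on VPA arrays at 96 hpf. In vehicle embryos it was at least 1.20-fold lower than at 48 hpf (limma adjusted p = 0.000497), and in VPA embryos it fell by 0.58 ± 0.09. It was well above background on 2 and then 0 vehicle arrays, and on 1 and then 3 VPA arrays. Detection was reached in VPA at 96 hpf alone, so both falls, and the 1.20-fold bound, rest on signal near background. The shorter miR-10a* probe was well above background on 0 arrays.

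Endothelial miR-126b*, whose probe nearly matches that of miR-126, read 0.27, 0.30, 0.21 and 0.25 at 48 hpf and 0.13, −0.03, −0.04 and −0.16 at 96 hpf with vehicle. It fell by 0.28 ± 0.10 (limma adjusted p = 0.0186), a call lost without vehicle at 96 hpf replicate 4. In VPA embryos it went from 0.45, 0.40, 0.47 and 0.09 to −0.03, 0.03, 0.02 and −0.40 and fell by 0.45 ± 0.10. With array brightness as a covariate the changes were −0.14 and −0.21 and neither was called.
For miR-210* the vehicle arrays at 48 hpf read −1.06, −1.04, −1.05 and −1.29, all above those at 96 hpf, a fall of 0.57 ± 0.10 (limma adjusted p = 7.55e-05). The VPA arrays at 48 hpf read −1.43, −1.13, −0.99 and −1.19, and the change of −0.19 ± 0.10 in VPA embryos was not called.
A call in VPA embryos alone was made for 3 star arms, miR-182* at 0.90 ± 0.09, miR-10d* at 0.30 ± 0.06 and miR-126* at −0.57 ± 0.14. In vehicle embryos these gave 0.15, −0.08 and −0.05. The difference of the VPA effects, which is also the difference of the age effects, was called for the first 2 and not for miR-126* (−0.52 ± 0.20, limma adjusted p = 0.0885).
On vehicle arrays miR-126* read −1.39, −1.29, −1.26 and −1.37 at 48 hpf and −1.36, −1.43, −1.33 and −1.37 at 96 hpf; on VPA arrays it read −1.33, −1.21, −1.03 and −0.92 and then −1.51, −1.64, −1.39 and −2.23. The 2 star arms called in no contrast were miR-203b*, with a median of −1.94 and a range of −2.54 to −1.78 over 16 arrays, and miR-30e*, with a median of −1.32 and a range of −1.44 to −0.74.

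Star arms and partners were called together in a part of the pairs. In 15 pairs both arms were tested. At 48 hpf 6 of the 15 star arms were called with VPA, and for 3 the partner was called too, in the same direction: miR-10a*, miR-140* and miR-182*. The share called over all 178 miRNAs was 29.2%. At 96 hpf 2 were called and for 1, miR-210*, the partner was too, with 32.6% called over all. With age, 10 star arms were called in vehicle embryos, 7 with their partner, and 12 in VPA embryos, 7 with their partner, each time in the same direction. As calls in either direction, 7 of 10 and 7 of 12 are no more than the background of 80.3% and 77.5% of all miRNAs. For 1 direction the background was lower, at 46.1% higher and 34.3% lower in vehicle embryos. In VPA embryos it was 41.6% higher and 36% lower. Whether the shared direction exceeds these shares was not tested. Counted alone, the 24 tested partners gave 5 calls with VPA at 48 hpf (3 higher, 2 lower), 6 at 96 hpf (2 higher, 4 lower), 5 for the difference (2 higher, 3 lower), 20 with age in vehicle (8 higher, 12 lower) and 15 with age in VPA embryos (4 higher, 11 lower). The shares over all 178 miRNAs in the same order were 29.2%, 32.6%, 12.9%, 80.3% and 77.5%.

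The ratio of star arm to partner was taken on each array as the log2 difference of the 2 signals. Its level depends on how well both probes bind and says little about molecule numbers, so the change between groups is what is compared. In some pairs the annotation lists unlike numbers of genome places for the star and partner probes. Among the pairs with both arms tested these were 1 and 2 for miR-181a, miR-17a and miR-133a, 4 and 5 for miR-199, and 4 and 6 for miR-9. Such probes may not read the same hairpins, and the part of single hairpin copies in these ratios was not tested. In 14 of the 15 pairs the star probe was the dimmer on all 16 arrays, from medians near −0.5 for miR-199* to near −7 for miR-20a*. The exception was miR-140*, whose ratio to miR-140 lay between −0.36 and 0.53 and was above 0 on 4 arrays. An exact two-sided permutation test of 4 against 4 arrays cannot give a p below 0.0286, which is the value when the groups do not overlap. With p at that limit in 13 or 14 pairs tested per comparison, none would pass an adjustment over the pairs. A pair was compared when both arms were detected in at least 1 group and neither was at the floor throughout a group. In vehicle embryos at 96 hpf, miR-17a* and miR-20a* (age comparison) and miR-10a* (VPA comparison) were well above background on 0 arrays. A change in those ratios is limited by the background.

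With VPA at 48 hpf the ratio was higher without overlap in 3 of 13 pairs (23.1%, each exact p = 0.0286), and lower without overlap in none. The pairs were those of miR-17a, miR-210 and miR-2188.
The ratio of miR-17a* to miR-17a read −6.52, −6.61, −6.85 and −6.62 with vehicle and −6.31, −6.32, −6.34 and −6.15 with VPA, a gain of 0.37. For miR-2188* it read −1.35, −1.68, −1.29 and −1.41 with vehicle and −1.02, −1.16, −1.21 and −0.97 with VPA, a gain of 0.34. For miR-210* it read −1.79, −1.92, −1.80 and −1.84 and then −1.57, −1.60, −1.71 and −1.53, a gain of 0.23.
In these pairs the star arm changed by 0.20, 0.18 and −0.07 and the partner by −0.17, −0.16 and −0.31, and of these 6 changes that of miR-17a* alone was called. The shorter star probes gave 0.14, 0.02 and 0.03 in the order miR-17a*, miR-2188* and miR-210*. They were well above background on 5, 8 and 3 of the 16 arrays. The size of the miR-2188* gain thus depends on the probe. The ratio of miR-182* to miR-182, the pair that fell most, changed by −0.18 (exact permutation p = 0.114), and that of miR-140* by −0.15 (exact permutation p = 0.114).

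At 96 hpf 1 of 13 pairs (7.69%) did not overlap. The ratio of miR-30e* to miR-30e read −2.97, −3.08, −2.90 and −2.93 with vehicle and −2.61, −2.82, −2.81 and −2.14 with VPA, a gain of 0.38 (exact permutation p = 0.0286). VPA replicate 4 was the highest, and without it the gain was 0.22. Here the partner moved, miR-30e by −0.26 ± 0.07 (limma adjusted p = 0.013), while miR-30e* changed by 0.12 and was not called.

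With age in vehicle embryos 6 of 14 pairs (42.9%) did not overlap, 4 with a lower and 2 with a higher ratio at 96 hpf (each exact p = 0.0286). The largest was miR-2188*, with a ratio of −2.23, −2.48, −2.47 and −2.71 at 96 hpf, lower by 1.04 than at 48 hpf. Next came miR-182*, from −3.12, −3.30, −2.98 and −2.91 to −3.81, −3.89, −3.73 and −3.57, a change of −0.68. For miR-181a* it went from −3.33, −3.50, −3.45 and −3.78 to −4.27, −3.99, −4.34 and −4.09, a change of −0.66.
Different arms had moved in these 3 pairs: miR-2188* and miR-181a* fell while their partners were not called, and miR-182* was not called while miR-182 rose by 0.83. The ratio of miR-126* went from −2.85, −2.65, −2.56 and −2.79 to −2.87, −2.97, −2.86 and −2.89, a change of −0.19. There miR-126 rose by 0.14 (limma adjusted p = 0.0254) and miR-126* changed by −0.05. The shorter miR-126* probe, well above background on 11 arrays, gave 0.24 with age in vehicle embryos, so this ratio change depends on the probe. Higher at 96 hpf were miR-210*, at −1.30, −1.39, −1.40 and −1.42 (by 0.46), and miR-9*, from −1.39, −1.45, −1.50 and −1.64 to −1.21, −1.09, −1.13 and −1.19 (by 0.34).
In both of these pairs star arm and partner fell, the partner by more: miR-210 by 1.03 and miR-9 by 0.88.

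**Figure D4:**
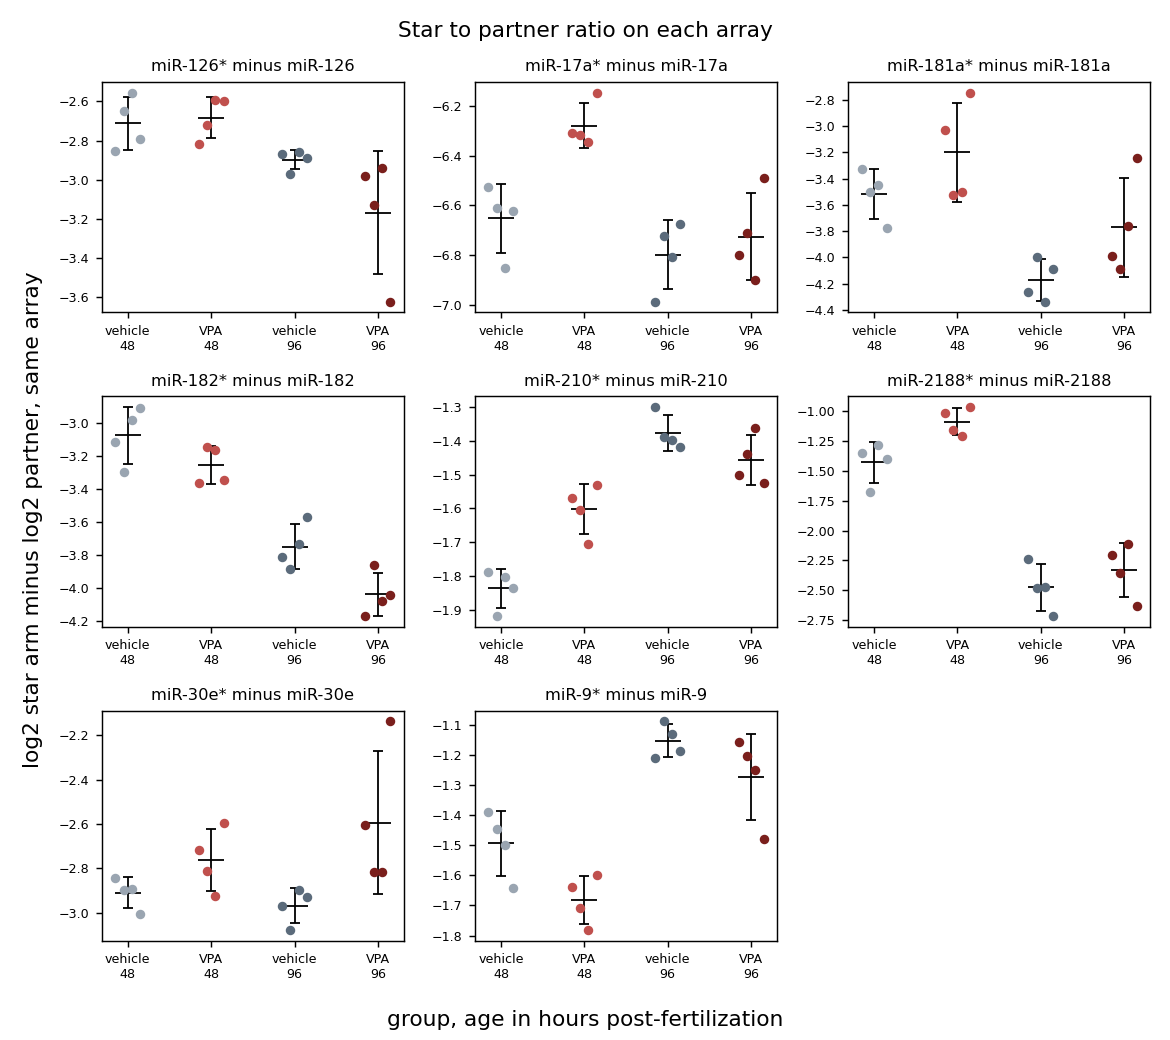
Ratio of star arm to partner on each array (log2 star minus log2 partner) for the 8 pairs whose groups did not overlap in at least 1 comparison; dots are arrays, bars the group mean and SD, and each panel has its own vertical scale. The ratio of miR-2188* stands between −1.68 and −0.97 at 48 hpf and between −2.71 and −2.11 at 96 hpf.

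The second and shorter probes of a name give another reading of the same star arm, on the same arrays and of an overlapping sequence. Of the other probes of called star arms, those well above background on 3 arrays or more of a compared group had the sign of the reported probe in 4 of 4 cases for VPA at 48 hpf, 2 of 2 for VPA at 96 hpf, 9 of 9 for age in vehicle and 10 of 10 for age in VPA embryos. The remaining other probes, 5, 3, 6 and 9 in that order, were dimmer than this limit. With them included, the sign was the same for 8 of 9, 4 of 5, 13 of 15 and 13 of 19 other probes. A change of exactly 0 was read for 0, 1, 2 and 2 of these. For miR-182* the probe 1 base shorter gave −0.78 at 48 hpf, and its 2 shortest probes were well above background on 0 and 2 arrays.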

How the data were processed

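Total RNA of 16 samples was hybridized to 1-colour Agilent miRNA arrays. The deposited scanner files hold the intensity of each spot. The file headers name Agilent Feature Extraction 9.5.3.1, and its output is background-subtracted and not scaled between arrays; other deposited columns are flags of 0 or 1. A deposited value table holds the same intensity within 1% for 100% of values. Each array held 10360 non-control spots of 548 probes, 518 of them zebrafish.

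Outlier spots were left out (3.32% to 8.07% per array), the signal was divided by the array's 75th percentile, floored at 0.0648, and averaged as log2 over spots; 56.0% of probes were detected on average, above the preset 50%. The brightest probe stood for a name. The 178 zebrafish names detected on at least 3 arrays of a group were fitted with limma 3.58.1 in R 4.3.3 (data.table, version 1.17.8), with 1 mean for each of the 4 groups; tests were two-sided, Benjamini-Hochberg adjusted, threshold 0.05. A fold is given as a bound when a group was below background on all 4 arrays. Figures used Python 3.11.15, pandas 2.3.3 and matplotlib 3.10.9. The fit was tested on simulated data.

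Every star arm was accounted for, and those called in any contrast were given on every array; only partners were named beside them. The members and lists were chosen with earlier results of these data known. Same-numbered samples deviated together at 96 hpf (r = 0.286, 0.285, 0.273 and 0.244) but not at 48 hpf (r = 0.0977, −0.184, 0.324 and −0.151), so the numbers were not taken as pairs. Alternatives covered background correction, scaling, signal column, floor, filter, probe rule, replicate block, array brightness, arrays in the fit, and leaving out each array.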

Additional observations from a re-analysis of the deposited data

Results flagged for a closer look

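A single array stood apart from the other 3 of its group for 7 of 59 combinations of a tested star arm and a group, by a gap test that flags about 5% of groups by chance. Of these, 4 were on VPA at 96 hpf replicate 4, the brightest array, with a 75th percentile of 6179 intensity units. On it miR-126b* read −0.40 against a group median of 0.02, miR-181a* −0.49 against −1.04, miR-30e* −0.74 against −1.33 and miR-9* 1.92 against 2.99. Without that array the VPA change at 96 hpf was 0.03, 0.22, −0.03 and 0.15 for these star arms, in place of −0.07, 0.35, 0.12 and −0.12. The brightness of the array was not tested as the source of these readings. The other flagged arrays were vehicle at 48 hpf replicate 4, where miR-203b* read −2.54 against −1.79 and miR-210* −1.29 against −1.05, and VPA at 48 hpf replicate 2, where miR-129* read −1.18 against a group median of −1.25.

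The VPA effect differed between the ages, by the interaction term of the limma fit, for miR-182* (0.75, adjusted p = 0.000896) and miR-10d* (0.38, adjusted p = 0.00959), the latter detected in neither group at 48 hpf. The term was also called for miR-459* (−0.41, limma adjusted p = 0.00364). That star arm was at the floor on all 8 arrays at 48 hpf, so the term only repeats its change at 96 hpf.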

How the results depend on the processing

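With normexp background correction the star arm calls went from 7 to 0 for VPA at 48 hpf, from 4 to 0 at 96 hpf, from 3 to 0 for the difference and from 13 to 6 for age in vehicle embryos, while the non-overlapping ratios went from 3 to 5, from 1 to 3 and from 6 to 3. Over all 178 tested miRNAs the normexp calls for VPA at 48 hpf went from 52 to 5, so that loss was not particular to the star arms. That correction also turned signs: miR-10d* gave 0.64 and miR-182* 0.12 for VPA at 48 hpf, −0.98 and −0.44 for the difference and −0.96 and −0.365 for age in VPA embryos, and miR-459* gave −0.67 for the latter, where quantile normalization turned miR-10d* to −0.033. The scanner software's total gene signal left 3 calls at 48 hpf and 1 for the difference, fitting only the compared arrays left 2 at 96 hpf, and the mean of all probes gave 5 non-overlapping ratios at 96 hpf. With total gene signal 47 of the 178 miRNAs were called at 48 hpf. The cause was not tested. All other alternatives kept the counts of calls, of detected star arms and of non-overlapping ratios within 1.5 times.

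Leaving out each array in turn gave 3 to 9 calls for VPA at 48 hpf, 2 to 5 at 96 hpf, 3 to 6 for the difference, 12 to 14 for age in vehicle and 14 to 16 in VPA embryos, and 3 to 5, 1 to 3 and 6 to 8 non-overlapping ratios. For VPA at 48 hpf the 9 calls, without VPA at 96 hpf replicate 4, went with 84 of all 178 miRNAs called. The 3 calls, without VPA at 48 hpf replicate 3, went with 43, against 52 in the main fit. Counts over all miRNAs for the other contrasts are not given here, so those ranges are not read against a background. Leaving out an array cannot make non-overlapping groups overlap, so the lower ends of the ratio ranges are no check of stability. The ratios moved by over 1.5 times without vehicle at 48 hpf replicate 2 or 4 (5 each), without replicate 2 of vehicle at 96 hpf (3), without replicate 2 or 3 of VPA at 96 hpf (3 each), and without VPA at 96 hpf replicate 4 (2). The replicate block within each time left 7, 4, 3, 13 and 15 calls in the 5 contrasts and changed none of them. The deposited value table, tried after seeing the data, gave 7, 5, 3, 13 and 15. Signal over background limits the dim star arms miR-10a*, miR-10d*, miR-17a*, miR-20a*, miR-182* and miR-459*, for which a change in a group below background cannot be seen.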
